A study of Mus musculus with 11 samples.

Results

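The genes described here encode 9 enzymes with which oligodendrocytes, the myelin-forming cells of the brain, make and break down the characteristic lipids of myelin: Ugt8a, Fa2h, Gal3st1, Cers2, Elovl1, Elovl7, Aspa, Galc and Arsa. They were chosen by symbol for these roles, among 16228 genes of the deposited table. The symbols of 8 were listed as such, and 1, Cers2, was listed under its older symbol Lass2 and was matched through RefSeq synonyms. All 9 passed the filter on low values (3 or more libraries at 1 normalised count or above).

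The values come from bulk RNA sequencing of 4 mm punches of mouse cerebral cortex at postnatal day 30. There were 4 Prkci cKO libraries (labelled Ng2 Cre+ Prkci f/f), 3 Prkcz cKO libraries (Ng2-Cre+ Prkcz f/f) and 4 controls, namely 2 with the genotype Pkcz f/+ (replicates 1 and 2) and 2 with Pkcz f/f (replicates 3 and 4). PRKCI and PRKCZ are the atypical protein kinases C, enzymes of cell polarity, and the series asked what each does in the oligodendrocyte lineage. Ng2-Cre is driven by regulatory sequence of Cspg4, the gene of the NG2 proteoglycan, which oligodendrocyte precursors carry and which vascular pericytes carry as well. The control labels name neither Cre nor a Prkci allele. Kinase, line and Cre thus cannot be told apart in Prkci cKO against controls, nor can kinase and Cre in Prkcz cKO against controls. Both knockouts carry Cre by their labels, and between them kinase and line cannot be told apart.

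As background, galactosylceramide and its sulfated form, sulfatide, make up a large share of myelin lipid and help compact and maintain the sheath. Their ceramide backbone carries very long acyl chains, often hydroxylated, which are built by elongases of the endoplasmic reticulum and joined by a ceramide synthase. UGT8 adds galactose to ceramide, GAL3ST1 adds sulfate, and in the lysosome ARSA removes the sulfate and GALC the galactose. ASPA splits N-acetylaspartate, a metabolite made in neurons, and the acetate it frees can enter lipid synthesis in oligodendrocytes.

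The promoters of a gene that was lower in both knockouts (Ugt8a), of 2 genes that were lower in Prkci cKO (Cers2 and Aspa) and of a gene that passed no test (Galc) are shown, because the first 3 fell in Prkci cKO and the last did not pass there. Each runs from 250 bases before to 50 bases after a RefSeq transcript start on GRCm38.p6, 5′ to 3′ on the strand of the gene, and capitals mark matches to the motifs searched. For Cers2 the first of 2 listed starts is printed.
Ugt8a promoter, chr3:125938603-125938902, minus strand: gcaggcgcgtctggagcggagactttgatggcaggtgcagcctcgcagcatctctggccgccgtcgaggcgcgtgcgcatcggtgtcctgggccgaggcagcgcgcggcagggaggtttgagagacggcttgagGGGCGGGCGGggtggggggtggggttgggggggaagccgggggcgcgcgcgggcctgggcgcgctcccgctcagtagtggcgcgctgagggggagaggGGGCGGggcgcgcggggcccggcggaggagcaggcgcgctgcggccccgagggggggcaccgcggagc
Cers2 promoter, chr3:95314940-95315239, plus strand: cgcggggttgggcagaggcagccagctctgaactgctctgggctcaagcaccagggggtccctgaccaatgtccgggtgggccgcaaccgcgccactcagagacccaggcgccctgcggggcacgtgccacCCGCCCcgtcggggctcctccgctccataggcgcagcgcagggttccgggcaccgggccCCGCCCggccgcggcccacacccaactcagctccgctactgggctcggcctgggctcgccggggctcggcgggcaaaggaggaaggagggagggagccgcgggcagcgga
Aspa promoter, chr11:73324588-73324887, minus strand: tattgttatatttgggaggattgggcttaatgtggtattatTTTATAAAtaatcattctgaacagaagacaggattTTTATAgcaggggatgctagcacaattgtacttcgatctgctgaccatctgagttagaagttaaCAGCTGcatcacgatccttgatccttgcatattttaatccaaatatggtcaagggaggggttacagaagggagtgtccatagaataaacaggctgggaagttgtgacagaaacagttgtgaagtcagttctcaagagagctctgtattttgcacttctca
Galc promoter, chr12:98259410-98259709, minus strand: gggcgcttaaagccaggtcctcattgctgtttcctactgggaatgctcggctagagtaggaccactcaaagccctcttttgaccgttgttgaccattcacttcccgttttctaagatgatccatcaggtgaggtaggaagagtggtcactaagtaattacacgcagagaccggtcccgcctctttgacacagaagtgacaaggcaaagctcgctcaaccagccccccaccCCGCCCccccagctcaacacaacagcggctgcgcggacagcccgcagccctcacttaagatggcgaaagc

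The genes themselves are protein-coding genes of GENCODE M21 on GRCm38. Those of galactolipid synthesis are Ugt8a at chr3:125865271-125938619 (minus strand), Fa2h at chr8:111345135-111393824 (minus) and Gal3st1 at chr11:3983636-3999326 (plus). Those of the acyl chain are Cers2 at chr3:95314791-95323599 (plus), Elovl1 at chr4:118428093-118432953 (plus) and Elovl7 at chr13:108214404-108285683 (plus). Aspa lies at chr11:73304992-73329596 (minus), Galc at chr12:98202294-98259459 (minus) and Arsa at chr15:89472476-89477425 (minus).

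The motifs were ACAAAG and ACAATG, cores bound by SOX factors, the E-box CAGCTG, the GC box GGGCGG and the TATA box TATAAA, each searched on both strands. In the Ugt8a window, 2 of the 3 GC boxes overlap each other, and in the Aspa window TATAAA on one strand overlaps its match on the other. Promoters of 8 of the 9 genes were listed, Fa2h being the exception, with 12 starts in all. A GC box lay in 6 of the 12 windows, belonging to 5 genes (Ugt8a, Cers2, Elovl1, Elovl7 and Galc), and 35.7% of all 32851 promoters of that table held it. CAGCTG was in 2 windows, of Cers2 and Aspa (16.3% of all promoters), and ACAATG in 2 windows of Gal3st1 (12.6%). TATAAA was in 1 window, that of Aspa (13.6%), and ACAAAG in none (18.7%). The GC content was 78.3% in the Ugt8a window, against 39.0% in that of Aspa, 55.7% in that of Galc and a median of 52.7% over all promoters. The GC box was thus present both in genes that fell and in Galc, and the Aspa window held none.

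To check the labels, the targeted genes were examined first. Prkci was 67.0 ± 1.47 in Prkci cKO against 87.8 ± 2.52 in controls (SD, n = 4 each) and fell by 0.39 on the log2 scale (limma adjusted p = 9.84e-04). Prkcz was 278 ± 15.1 in Prkcz cKO (SD, n = 3) against 323 ± 20.2 in controls (SD, n = 4), which missed the threshold (log2 -0.22, limma adjusted p = 0.0966). Values are the authors' normalised counts, which sum to 1021767 to 1082562 per library, and the depth estimated from the steps of low values was 14810000 reads in Prkcz cKO replicate 3 and 20620000 to 28170000 in the others. Of the 10 neuron markers listed, none passed in either knockout by limma (2 in Prkci cKO and 3 in Prkcz cKO at an unadjusted p under 0.05), and no gene of any marker list was at 0 in any library. Their summed level was 11242 to 11942 in Prkci cKO, 11525 to 12012 in Prkcz cKO and 11056 to 11553 in controls.

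Of the 3 galactolipid synthesis genes, Ugt8a and Fa2h fell in Prkci cKO and Gal3st1 did not pass. Ugt8a, the galactosyltransferase that makes galactosylceramide, had 79.4, 70.2, 63.5 and 92.3 normalised counts in the 4 Prkci cKO libraries, against 152, 150, 124 and 129 in controls. Every Prkci cKO value lay below every control value, and Ugt8a fell by 0.86 (log2; SE 0.106) with an adjusted p of 0.00132 by limma, or -45.0% in linear terms. In Prkcz cKO it had 94.3, 77.6 and 87.8 normalised counts, again all below the controls, and it fell by 0.67 (SE 0.114, adjusted p = 0.0215), a change of -37.3%. It was the only one of the 9 that passed in both comparisons, which share the same control libraries. In bulk tissue, fewer cells of a type and less RNA per cell cannot be told apart.

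Fa2h, the hydroxylase that adds the hydroxyl group to these acyl chains, had 41.9, 38.8, 30.8 and 48.4 normalised counts in Prkci cKO against 93.9, 74.5, 60.6 and 64.8 in controls. The groups did not overlap, and Fa2h fell by 0.87 (log2, SE 0.143, limma adjusted p = 0.00619). Its Prkcz cKO values of 47.1, 44.2 and 56.6 also lay below every control, but -0.56 (log2, SE 0.154) missed the threshold at an adjusted p of 0.126. Among controls the Pkcz f/+ animals held the highest values. Against the Pkcz f/f controls alone the Prkci cKO change of Fa2h was -0.66 and no longer passed (adjusted p = 0.0632, over all 19 alternatives 0.00383 to 0.0632).

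Gal3st1, the sulfotransferase that turns galactosylceramide into sulfatide, did not pass in either knockout. It had 9.36, 8.98, 9.05 and 11.2 normalised counts in Prkci cKO, 10.7, 10.8 and 10.9 in Prkcz cKO and 20.2, 15.5, 11.95 and 11.92 in controls. All knockout values lay below the lowest control, but the controls were spread widely, with means of 17.8 in Pkcz f/+ and 11.9 in Pkcz f/f animals. The log2 change was -0.57 (SE 0.138, limma adjusted p = 0.0581) in Prkci cKO and -0.41 (SE 0.149, adjusted p = 0.228) in Prkcz cKO. In Prkci cKO it passed without Control replicate 3 (-0.66, adjusted p = 0.0325) or without Control replicate 4 (-0.66, adjusted p = 0.0362), both Pkcz f/f, within a range of 0.0325 to 0.190 over its alternatives.

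**Figure D1:**
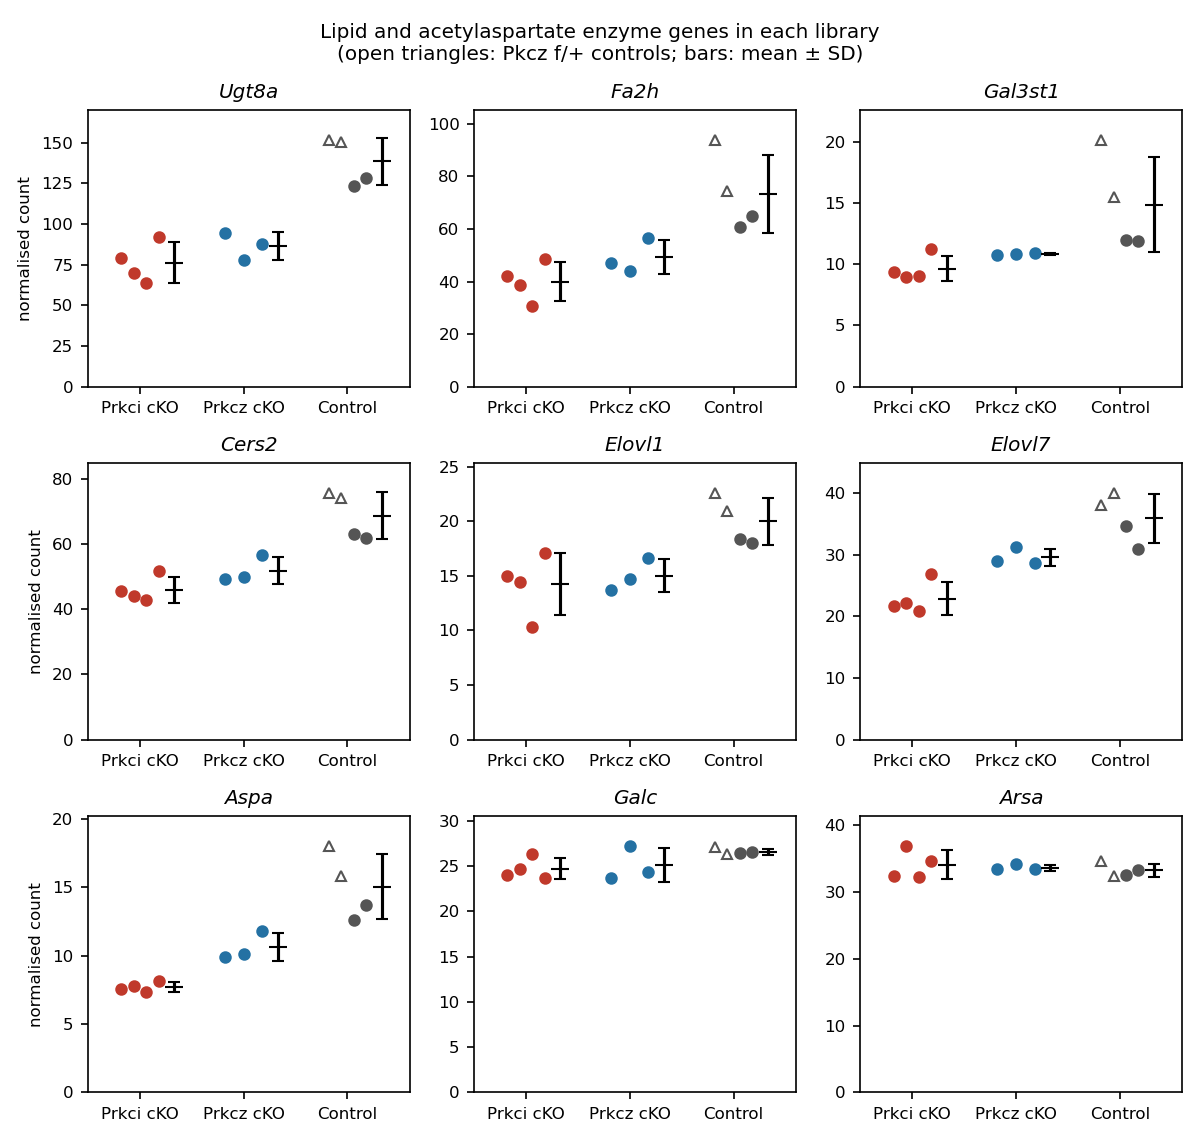
Normalised counts (linear axis from 0) of the 9 genes in each library of Prkci cKO, Prkcz cKO and controls, with mean ± SD beside the points and open triangles for Pkcz f/+ controls. Ugt8a, Fa2h, Gal3st1, Cers2, Elovl1 and Aspa are lower in all 7 knockout libraries than in any control, while Arsa overlaps throughout.

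Of the 3 genes of very long chain synthesis, Cers2 and Elovl7 fell in Prkci cKO, and none passed in Prkcz cKO. Cers2, the ceramide synthase that attaches very long acyl chains, had 45.5, 44.0, 42.7 and 51.6 normalised counts in Prkci cKO against 75.7, 74.2, 63.1 and 61.8 in controls. It fell by 0.57 (log2, SE 0.0800, limma adjusted p = 0.00226) with no overlap of the groups. The Prkcz cKO libraries, at 49.2, 49.8 and 56.6, were also all below the controls, yet -0.40 (log2, SE 0.0864) missed the threshold at an adjusted p of 0.0558. It passed there without Control replicate 4 (-0.45, adjusted p = 0.0494) and with array weights (-0.42, adjusted p = 0.0363), in a range of 0.0363 to 0.230. Cers2 overlaps 75 bases of the opposite-strand gene Setdb1 (37.8 to 47.7 normalised counts), and the strand setting of the counting is unknown here.

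Elovl7, an elongase of saturated fatty acids, had 21.7, 22.1, 20.8 and 26.9 normalised counts in Prkci cKO against 38.02, 40.05, 34.7 and 30.9 in controls. It fell by 0.64 (log2, SE 0.0890, limma adjusted p = 0.00226), and no library of Prkci cKO reached the lowest control. In Prkcz cKO it had 29.0, 31.2 and 28.7, of which 1 lay inside the control range, and the log2 change was -0.27 (SE 0.0962, adjusted p = 0.222). Elovl1, the elongase for the very long saturated chains of sphingolipids, had 15.01, 14.4, 10.3 and 17.1 in Prkci cKO, 13.7, 14.7 and 16.7 in Prkcz cKO and 22.6, 21.0, 18.43 and 18.03 in controls. Both knockouts lay wholly below the controls, yet neither log2 change of Elovl1 passed, at -0.49 (SE 0.128, adjusted p = 0.0782) in Prkci cKO and -0.40 (SE 0.138, adjusted p = 0.206) in Prkcz cKO. In Prkci cKO it passed without replicate 4 of that group (-0.59, adjusted p = 0.0378), its range over alternatives being 0.0378 to 0.291. An overlap of 53 bases with Cdc20 on the other strand concerns a gene of only 0.89 to 1.87 normalised counts. Arsa overlaps 1190 bases of the opposite-strand C230037L18Rik (0.61 to 1.68 normalised counts). Opposite-strand genes without a value in these data overlap Galc (Gm47439, 400 bases), Cers2 (6330562C20Rik, 337 bases) and Elovl7 (Gm32376, 374 bases, and Gm30747, 467 bases).

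Aspa had the lowest p of the 9 in Prkci cKO, where it ranked 6 of 14330 genes. It had 7.57, 7.78, 7.32 and 8.13 normalised counts in Prkci cKO against 18.03, 15.81, 12.6 and 13.7 in controls. The knockout values were tightly grouped and far below the controls, and Aspa fell by 0.91 (log2, SE 0.102, limma adjusted p = 9.84e-04), a change of -46.8%. In Prkcz cKO it had 9.88, 10.2 and 11.8, between the other groups, and -0.48 (log2, SE 0.11) missed the threshold at an adjusted p of 0.0717. It passed there without Control replicate 3 (-0.55, adjusted p = 0.0451) and with array weights (-0.48, adjusted p = 0.0461), in a range of 0.0451 to 0.251.

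The lysosomal enzymes did not pass. Galc had 24.0, 24.7, 26.3 and 23.6 normalised counts in Prkci cKO, 23.7, 27.2 and 24.4 in Prkcz cKO and 27.1, 26.3, 26.4 and 26.5 in controls. All 4 Prkci cKO values of Galc were below the lowest control, while the range of the Prkcz cKO values reached past the highest. The log2 change of Galc was -0.11 (95% interval -0.23 to 0.02, limma adjusted p = 0.502) in Prkci cKO and -0.08 (-0.22 to 0.05, adjusted p = 0.549) in Prkcz cKO. Arsa had 32.5, 37.0, 32.3 and 34.6 in Prkci cKO, 33.4, 34.2 and 33.4 in Prkcz cKO and 34.6, 32.4, 32.6 and 33.3 in controls, and the 3 groups overlapped. Its log2 change was 0.03 (95% interval -0.08 to 0.15, adjusted p = 0.863) in Prkci cKO and 0.02 (-0.11 to 0.14, adjusted p = 0.896) in Prkcz cKO.

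Counted together, 5 of the 9 genes were lower in Prkci cKO and none was higher by limma's adjusted p, where 1.51% of all genes tested were lower, 0.0977% higher and 1.61% either. In Prkcz cKO 1 of the 9, Ugt8a, was lower and none higher, where 0.621% of all genes were lower, 0.0279% higher and 0.649% either. At an unadjusted p under 0.05, 7 of 9 were lower in each comparison, where 7.79% of all genes were lower in Prkci cKO and 9.34% in Prkcz cKO. The median log2 change of the 9 was -0.57 in Prkci cKO and -0.40 in Prkcz cKO, beside 0.00 and -0.01 over all 14330 genes. Every knockout library lay below every control for 8 of 9 genes in Prkci cKO (5.32% of all genes) and 6 of 9 in Prkcz cKO (6.72%). The same 8 and 6 must lie below the Pkcz f/f controls alone, as these are part of the control group. By limma against the Pkcz f/f controls alone, 4 of the 9 were lower in Prkci cKO and 0 in Prkcz cKO. Over all 14330 genes, 132 and 59 passed there in either direction, against 230 and 93 with all controls. Ugt8a did not hold its call in Prkcz cKO without Control replicate 1 (-0.63, adjusted p = 0.0532), Control replicate 2 (-0.63, adjusted p = 0.0548), Prkcz cKO replicate 2 (-0.60, adjusted p = 0.103) or Prkcz cKO replicate 3 (-0.69, adjusted p = 0.0689).

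**Figure D2:**
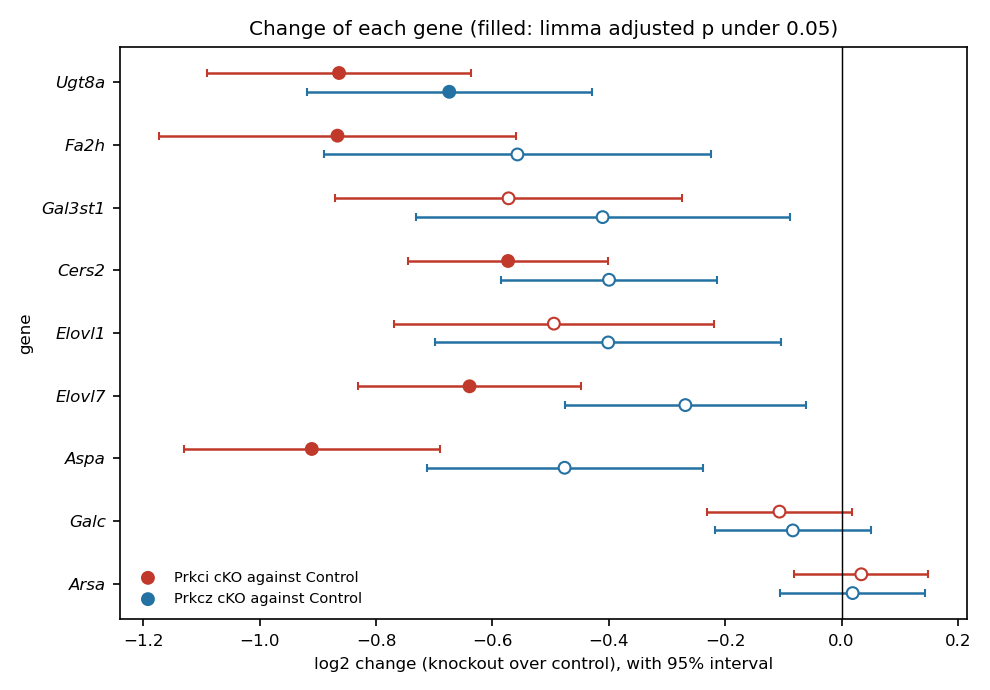
Log2 change of each gene with its 95% interval from the limma fit, for Prkci cKO against controls (above) and Prkcz cKO against controls (below) in each pair; filled points passed the adjusted threshold. Of the filled points 5 belong to Prkci cKO and 1 to Prkcz cKO, and the intervals of Galc and Arsa include 0 in both.

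The knockouts were also compared with each other. Aspa differed by -0.43 (log2, Prkci cKO over Prkcz cKO, SE 0.11, limma adjusted p = 0.130) and Elovl7 by -0.37 (SE 0.0962, adjusted p = 0.136). These were the 2 of 9 genes whose Prkci cKO libraries all lay below every Prkcz cKO library, as 6.43% of all genes did. None of the 9 passed over all genes, where 0.300% did in either direction (0.0628% lower and 0.237% higher), and 2 were lower in Prkci cKO at an unadjusted p under 0.05, where 6.22% of all genes were. The 95% interval was -0.43 to 0.06 for Ugt8a, -0.64 to 0.02 for Fa2h, -0.36 to 0.01 for Cers2, -0.39 to 0.20 for Elovl1 and -0.48 to 0.16 for Gal3st1. For Galc it was -0.16 to 0.11 and for Arsa -0.11 to 0.14. Each of these intervals includes 0, so a difference between the knockouts was not shown for these genes. The intervals of Aspa (-0.67 to -0.20) and Elovl7 (-0.58 to -0.16) did not include 0, but they are not adjusted over all genes.

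Within the control group, 7 of the 9 genes were lower in both Pkcz f/f animals than in either Pkcz f/+ animal, Galc and Arsa being the exceptions, where 24% of all genes were. Ugt8a averaged 126 in Pkcz f/f against 151 in Pkcz f/+ animals, Fa2h 62.7 against 84.2, Cers2 62.5 against 74.9 and Aspa 13.2 against 16.9 (n = 2 each). With the controls fitted as separate genotypes, the log2 difference between Pkcz f/f and Pkcz f/+ was -0.55 for Gal3st1 (SE 0.130, limma adjusted p = 0.182), -0.41 for Fa2h, -0.35 for Aspa and -0.26 for Ugt8a. None of the 9 passed, where 0.154% of all genes did, and 5 were lower in Pkcz f/f at an unadjusted p under 0.05, where 6.48% of all genes were. Control replicate 1 was the highest control for 8 of the 9 genes. That library also stood apart in other markers, with a choroid plexus sum of 97.7 against 492 to 995 in the other controls and a meninges and fibroblast sum of 122 against 229 to 298, whose part in these results was not tested. The summed level of 14 mature oligodendrocyte and myelin markers was 5917 and 6464 in the Pkcz f/f controls, against 8900 and 7726 in the Pkcz f/+ controls.

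The libraries of a knockout also differed in a shared way. In Prkci cKO, replicate 4 was the highest and replicate 3 the lowest library for Ugt8a, Fa2h, Cers2, Elovl1, Elovl7 and Aspa. The myelin marker sum had the same highest and lowest libraries, at 5019 in replicate 4, 4397 in replicate 1, 3652 in replicate 2 and 3136 in replicate 3. Galc had the opposite ends in this group, highest in replicate 3 and lowest in replicate 4.

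**Figure D3:**
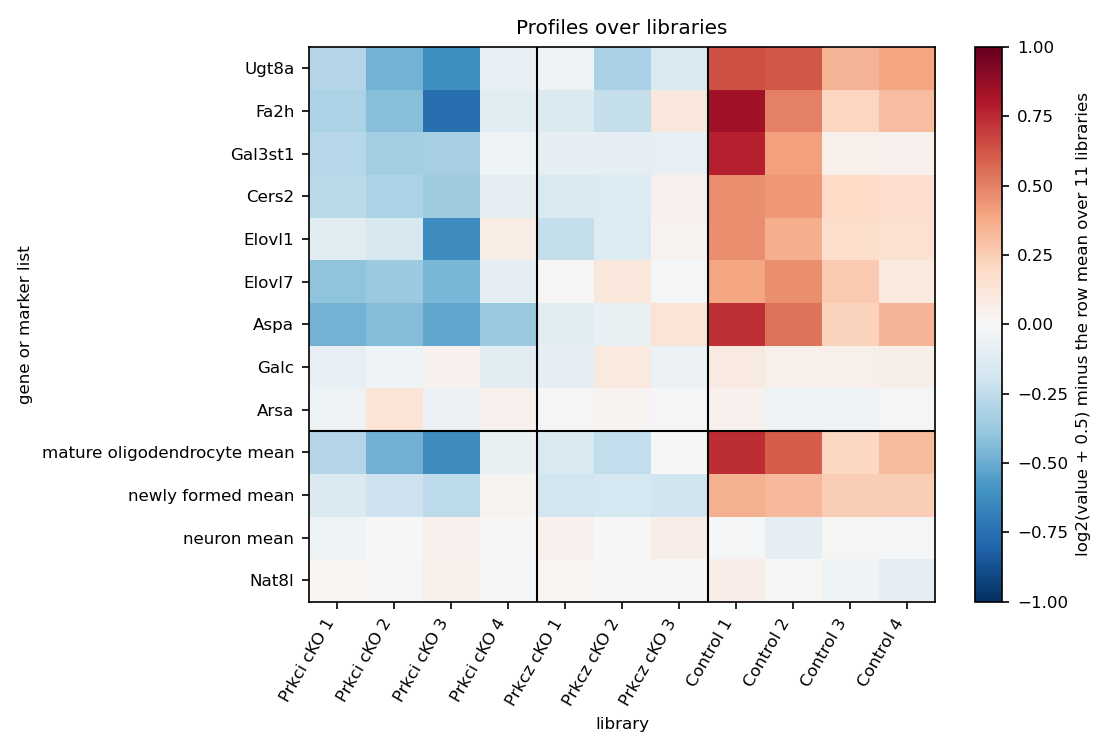
Level of each gene, of 3 marker lists (mean over their genes) and of Nat8l in the 11 libraries, as log2(value + 0.5) minus the mean of that row, in the order Prkci cKO, Prkcz cKO, controls. Ugt8a, Fa2h, Gal3st1, Cers2, Elovl1 and Aspa and the mature oligodendrocyte list are lowest or near lowest in Prkci cKO replicate 3 and high in Control replicate 1, while Galc, Arsa, Nat8l and the neuron list are nearly flat.

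Compared per length (mean normalised count per kb of the longest coding transcript), levels in controls had the following order. Ugt8a (36.9 ± 3.87 per kb), Cers2 (31.0 ± 3.27) and Fa2h (29.5 ± 5.95) were highest (SD, n = 4); Ugt8a exceeded Cers2 by more than either SD, and Cers2 and Fa2h did not differ beyond their spread. Elovl1 (11.1 ± 1.2), Arsa (9.52 ± 0.289), Elovl7 (8.96 ± 1.0), Aspa (8.59 ± 1.37), Gal3st1 (7.92 ± 2.08) and Galc (6.94 ± 0.0882) followed. From Arsa to Galc, neighbours differed by less than the larger SD of the pair. In Prkci cKO, Arsa (9.77 ± 0.627 per kb) stood above Elovl1 (7.86 ± 1.57) and Aspa, at 4.40 ± 0.196, was the lowest of the 9 in level per length. The order depends on the transcript chosen for each gene, which the deposited values do not give.

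The genes whose profiles over the 11 libraries lay nearest were named as a description, by the root mean square difference of centred log2 values among the 12132 genes averaging 2 or more on the log2 scale. Among the nearest to Ugt8a was Tspan2 (0.072), where the median gene was at 0.429. Fa2h had Mal (0.049) and Tmem88b (0.069), Cers2 had Slc44a1 (0.052) and Sirt2 (0.053), and Gal3st1 had Rffl (0.088) and Ttyh2 (0.097). Elovl1 had Sox2ot (0.064) and Trf (0.102), Elovl7 had Slc44a1 (0.107) and Cd82 (0.11), and Aspa had Gpr37 (0.083) and S1pr5 (0.109). The nearly flat Galc and Arsa had Zcchc3 (0.025) and Ust (0.039), and Elp2 (0.021) and 2610301G19Rik (0.030), with the median gene at 0.129 and 0.119.

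Levels were then set against the 14 mature oligodendrocyte and myelin markers in the same library. Of these markers 12 were lower in Prkci cKO (median log2 change -0.87) and 4 in Prkcz cKO (median -0.62), among them Ermn, Cldn11, Tspan2 and Cnp in both. Their summed level was 3136 to 5019 in Prkci cKO, 4244 to 4733 in Prkcz cKO and 5917 to 8900 in controls. Relative to the mean of these markers, Ugt8a differed by -0.03 on the log2 scale in Prkci cKO and by -0.07 in Prkcz cKO, and Fa2h by -0.03 and 0.04. Galc stood higher relative to the markers by 0.73 in Prkci cKO and 0.52 in Prkcz cKO, and Arsa by 0.87 and 0.62, with every knockout library above every control. Their own log2 changes were only -0.11 and -0.08 for Galc and 0.03 and 0.02 for Arsa. The relative rise thus largely restates the lower markers and is not separate evidence on these 2 genes. For Galc and Arsa the unadjusted p was 0.0286 in Prkci cKO and 0.0571 in Prkcz cKO (two-sided exact permutation test). These are the smallest that 4 against 4 and 3 against 4 libraries allow. Adjusted over 18 tests these were 0.129, so none passed. For Elovl1 the relative difference was 0.34 in Prkci cKO (exact permutation p = 0.0286, adjusted 0.129), and for Aspa it was -0.08 (p = 0.486, exact permutation). These values depend on the markers used as the base. Relative to the 12 newly formed oligodendrocyte markers instead, the Prkci cKO difference was -0.42 for Ugt8a, -0.43 for Fa2h and -0.47 for Aspa. It changed sign for Elovl1 (-0.05), Gal3st1 (-0.13), Cers2 (-0.13) and Elovl7 (-0.20), and was 0.33 for Galc and 0.47 for Arsa. In Prkcz cKO on that base it was -0.20 for Ugt8a, -0.08 for Fa2h, 0.07 for Gal3st1, 0.08 for Cers2 and for Elovl1, 0.21 for Elovl7 and 0.00 for Aspa.

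**Figure D4:**
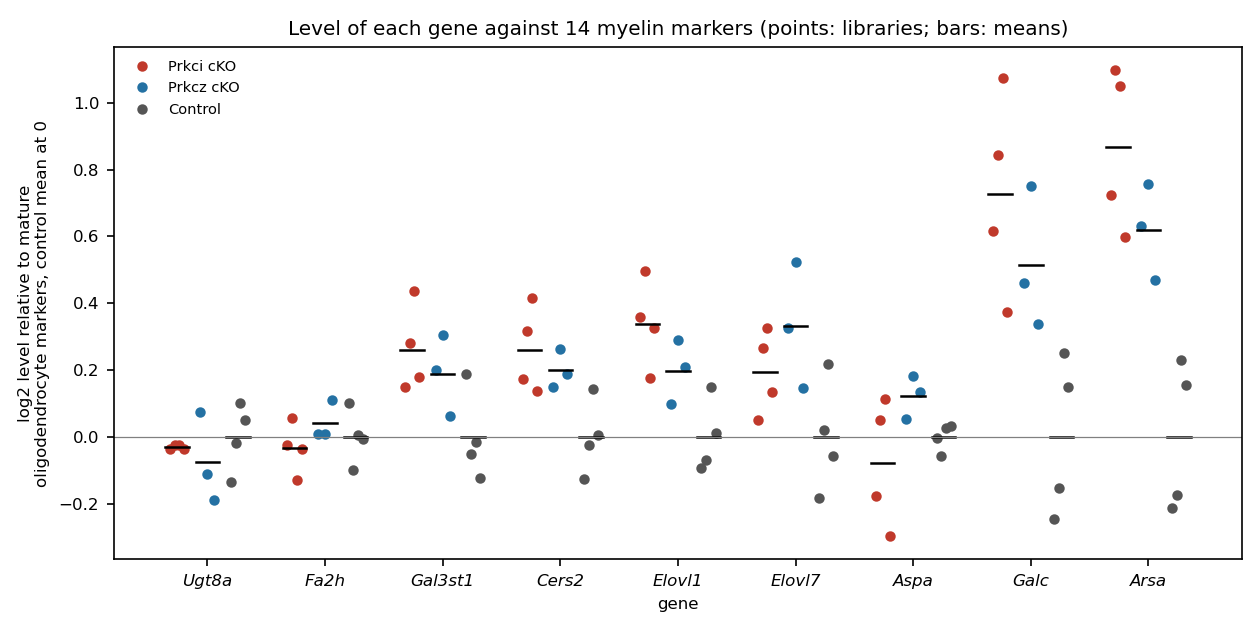
Log2 level of each gene minus the mean log2 level of 14 myelin markers in the same library, with the control mean of each gene set to 0; points are libraries and bars group means. On this marker base the Ugt8a and Fa2h means lie between -0.07 and 0.04 in the knockouts, and Galc and Arsa lie above all controls.

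Enzymes of opposing or successive steps were also set against each other within a library. The log2 ratio of Galc to Ugt8a, breakdown over synthesis of galactosylceramide, was 0.76 higher in Prkci cKO and 0.59 higher in Prkcz cKO than in controls. That of Arsa to Gal3st1, which remove and add sulfate, was 0.61 and 0.43 higher, and that of Cers2 to Ugt8a 0.29 and 0.27 higher. Aspa over Nat8l, the enzyme that makes N-acetylaspartate, was lower by a log2 difference of -0.94 in Prkci cKO and -0.50 in Prkcz cKO. In these 4 ratios the knockout libraries did not overlap the controls, and each p was the smallest possible by exact permutation (0.0286 and 0.0571, two-sided), but all were 0.10 after adjustment over 14 tests. Galc, Arsa and Nat8l themselves were nearly flat. The ratios that hold them thus largely restate the lower values of Ugt8a, Gal3st1 and Aspa and are not separate evidence. The ratio of Fa2h to Ugt8a differed by 0.00 and 0.12 (exact permutation p = 0.971 and 0.400), that of Gal3st1 to Ugt8a by 0.29 and 0.26 (p = 0.114 and 0.171), and that of Elovl7 to Elovl1 by -0.15 and 0.13 (p = 0.200 and 0.171).

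Among the other genes of these pathways few passed. In the list of 10 other elongation cycle enzymes, Elovl5, an elongase of polyunsaturated fatty acids, was 63.1 ± 2.30 in Prkci cKO (SD, n = 4) and 61.6 ± 1.99 in Prkcz cKO (SD, n = 3) against 73.4 ± 1.16 in controls (SD, n = 4). It fell by 0.22 (limma adjusted p = 0.0181) and by 0.25 (adjusted p = 0.0307), without overlap between either knockout and controls, and the other 9 passed in neither. Elovl6 had 86.9, 89.8, 84.1 and 85.5 in Prkci cKO and 89.1, 78.4 and 70.7 in Prkcz cKO, against 91.1 to 95.2 in controls. All knockout values lay below the controls, but Elovl6 passed in neither knockout (limma adjusted p = 0.137 in Prkcz cKO). Of 16 genes of fatty acid activation and peroxisomal breakdown, 1 passed: Acsl3, an acyl-CoA synthetase, at 195 ± 3.96 in Prkci cKO against 223 ± 7.67 in controls (SD, n = 4 each), which fell by 0.19 (adjusted p = 0.0267). Its log2 change in Prkcz cKO was -0.08 (adjusted p = 0.381).

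None of the 14 other ceramide synthesis genes tested passed in either knockout by limma, with 1 at an unadjusted p under 0.05 in each. Degs1, the desaturase that makes ceramide, had a log2 change of -0.17 (adjusted p = 0.167) in Prkci cKO and 0.02 in Prkcz cKO. The remaining ceramide synthases, listed under their older symbols Lass1, Lass4, Lass5 and Lass6, had log2 changes of 0.01, 0.03, -0.03 and -0.07 in Prkci cKO, beside -0.57 for Cers2. In Prkcz cKO they were -0.03, 0.00, -0.08 and -0.27, the last with an adjusted p of 0.229. Likewise none of 13 genes of glucosylceramide, ganglioside and sphingomyelin synthesis passed, with 0 at an unadjusted p under 0.05 in either comparison. St3gal5, the sialyltransferase of the first ganglioside, had log2 changes of -0.03 in Prkci cKO and 0.08 in Prkcz cKO, and B4galt5 -0.01 and -0.07.

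Of 13 other genes of lysosomal sphingolipid breakdown, none passed by limma, with 3 at an unadjusted p under 0.05 in Prkci cKO and 1 in Prkcz cKO. Hexa, a subunit of the lysosomal hexosaminidase, had log2 changes of -0.15 (adjusted p = 0.307) in Prkci cKO and -0.01 in Prkcz cKO, and Scarb2, which carries glucocerebrosidase to lysosomes, -0.16 (adjusted p = 0.246) and -0.11. Of 14 genes that make, move or use N-acetylaspartate and its products, none passed, with 0 at an unadjusted p under 0.05 in Prkci cKO and 1 in Prkcz cKO. Nat8l was 505 ± 11.5 in Prkci cKO (SD, n = 4), 503 ± 5.27 in Prkcz cKO (SD, n = 3) and 496 ± 23.7 in controls (SD, n = 4), with log2 changes of 0.03 and 0.02. Got1, a cytosolic transaminase, had 0.04 and 0.13 (adjusted p = 0.785 and 0.237), and Slc25a12, a mitochondrial aspartate carrier, 0.01 and 0.09. The median log2 change of these lists lay between -0.07 and 0.03 in Prkci cKO and between -0.02 and -0.01 in Prkcz cKO.

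**Figure D5:**
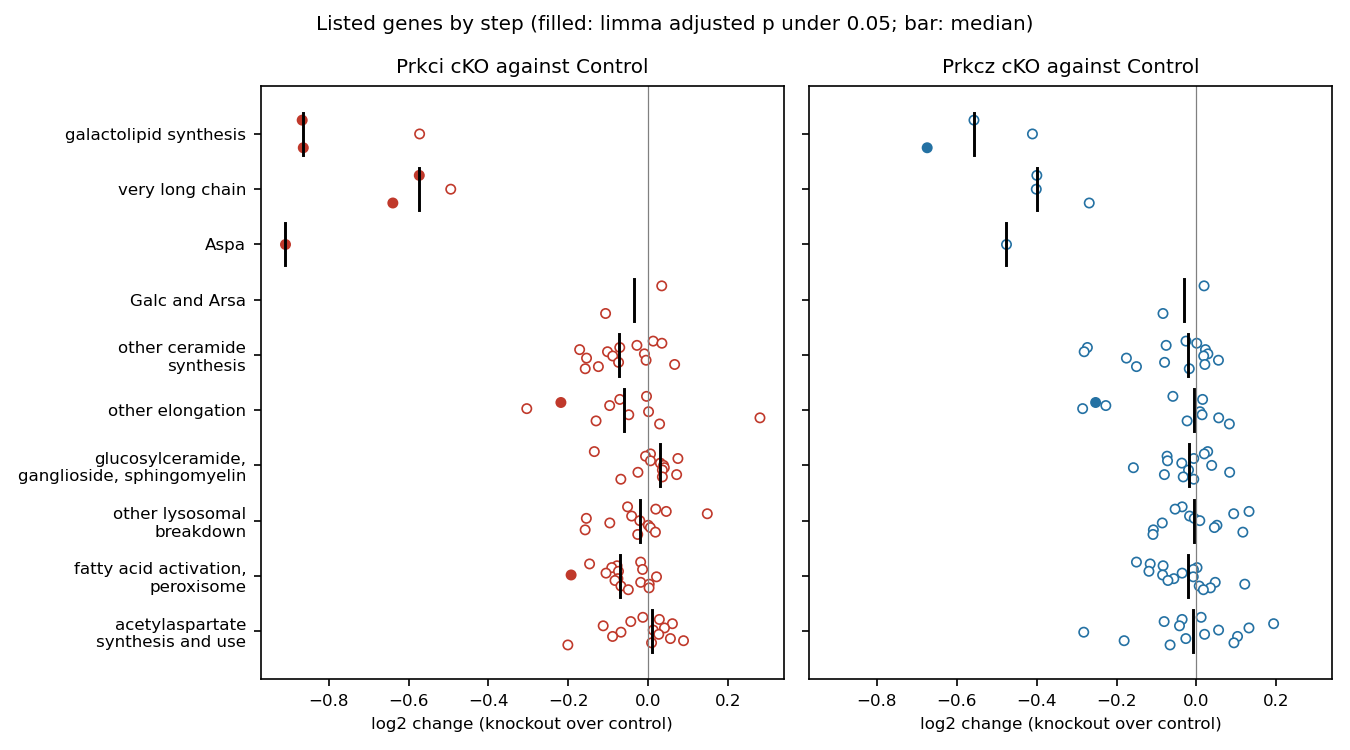
Log2 change of every tested gene of each step against controls, in Prkci cKO (left) and Prkcz cKO (right); filled points passed the adjusted threshold and bars are medians. The genes of galactolipid and very long chain synthesis and Aspa lie to the left, Elovl5 and Acsl3 are the filled points among the other steps, and the medians of those other steps lie between -0.07 and 0.03.

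Other marker lists moved in the same libraries. Newly formed oligodendrocyte markers had 9 of 12 genes lower in Prkci cKO and 6 of 12 in Prkcz cKO, with summed levels of 898 to 1028 and 886 to 953 against 1193 to 1351 in controls. For precursor markers, 2 of 10 were lower in Prkci cKO past the threshold, namely Sox10 (log2 -0.69) and Olig2 (-0.41). In Prkcz cKO 1 of 10 was, Sox10 again (-0.55), and no other gene of that list passed in either knockout. In each knockout 9 of 10 had a log2 change below 0, and 9 and 6 had an unadjusted limma p under 0.05 in either direction. Their sums were 222.0 to 248.5 in Prkci cKO and 225.3 to 248.0 in Prkcz cKO against 267.2 to 291.8 in controls, without overlap. Striatal markers, of the region below the cortex and its white matter, summed to 260.5 to 513 in Prkci cKO against 560 to 918 in controls. By limma 1 of 10 was lower there past the threshold, and all 10 were lower at an unadjusted p under 0.05 (median log2 change -1.02). In Prkcz cKO the striatal sum was 546 to 1271, with 0 of 10 past the threshold and 0 at an unadjusted p under 0.05. Of 10 immediate early genes, 7 were lower in each knockout, with sums of 406 to 483 in Prkci cKO and 292 to 465 in Prkcz cKO against 533 to 1138 in controls. Endothelial markers summed to 267 to 291 in Prkci cKO and 194 to 203 in Prkcz cKO against 232 to 260 in controls, with 2 of 10 lower in Prkcz cKO. All 10 had a log2 change below 0 in Prkcz cKO and 0 did in Prkci cKO, with 7 and 4 at an unadjusted limma p under 0.05. Astrocyte markers summed to 5598 to 6328 in Prkci cKO and 4147 to 5393 in Prkcz cKO against 5541 to 6132 in controls, with 0 of 10 lower in Prkci cKO (3 at an unadjusted p under 0.05) and 1 of 10 in Prkcz cKO, where every library lay below every control in summed level. Pericyte and mural cell markers, of interest because Ng2-Cre can act in pericytes, had 1 of 10 lower in Prkci cKO and 2 of 10 in Prkcz cKO. Their sums were 189 to 217 and 161 to 177 against 190 to 220 in controls. In Prkcz cKO 9 of the 10 had a log2 change below 0, and 8 an unadjusted limma p under 0.05 in either direction. In Prkci cKO these counts were 5 and 2. The part of the placement of the punch, of tissue handling and of cell composition in the lipid gene results was not tested.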

How the data were processed

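Total RNA of 11 cortex punches was sequenced as paired reads of 100 bases. Per the submitters' processing notes, FastQC, Trim Galore, STAR, RSEM and edgeR were used on GRCm38; no source used here gives versions, annotation, strand setting or gene filter. The deposited signal is a normalised count for each gene, made by the authors, with column sums of 1021767 to 1082562. Low values (under 0.5) were whole multiples of a step, within 0.005, in only 86.3% to 89.8% of cases, so reads could not be recovered and count models were not used; depth is estimated from that step. The series calls the libraries of a group biological replicates.

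The 14330 genes reaching 1 in 3 or more libraries were fitted as log2(value + 0.5), a scale that understates changes of low genes, with limma 3.58.1 in R 4.3.3: all 11 libraries, a term per group, a variance trend, no covariate, two-sided p-values adjusted by Benjamini-Hochberg over all genes, threshold 0.05. The script was tested on simulated data. Alternatives changed the pseudocount, filter, scaling, variance model, controls, samples, replicate block or marker base, or left out 1 library. Ratios and relative levels used exact permutation tests (scipy 1.17.1). The members and lists were chosen with earlier results of these data known. The genes named were the 9 members, the targeted kinases, Nat8l, listed genes past the threshold or else the 2 with the smallest p in each pathway list, up to 4 in each marker list, and the 2 nearest profiles of each member, of which 1 is not reported here; other ceramide synthases and Elovl6 were added after their values were seen. Not every marker gene the rule names is described. Positions are from GENCODE M21 on GRCm38, promoters from RefSeq on GRCm38.p6.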

Additional observations from a re-analysis of the deposited data

Results flagged for a closer look

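Gal3st1 in Prkci cKO replicate 4 was 11.2 normalised counts, against 8.98 to 9.36 in the other 3 libraries of that group. Its distance from the nearest library took up 0.830 of the range of the group, just past the critical value of 0.829 for 4 libraries. It was the 1 flag among 18 groups of 4 values examined for the 9 genes, and chance flags about 1 in 20.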

How the results depend on the processing

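The number of the 9 genes lower in Prkcz cKO was 1 as reported, 0 without the variance trend, 3 with array weights, 0 against Pkcz f/f controls alone and 0 to 2 with 1 library left out; in Prkci cKO it was 5, with 4 against Pkcz f/f controls and 5 to 6 with 1 library left out. Ugt8a, Cers2, Elovl7 and Aspa passed in Prkci cKO under all 19 alternatives, and Ugt8a passed in Prkcz cKO under 12 of 18 (adjusted p 0.0207 to 0.119 by limma). The cause of these shifts was not tested. The following values changed sign. Among log2 changes, Arsa in Prkci cKO ranged from -0.0050 to 0.059 with 1 library left out. Between the knockouts Elovl1 was 0.0059 with array weights and -0.19 to 0.047 with 1 library left out, Galc -0.063 to 0.036 and Arsa -0.024 to 0.040. The Fa2h to Ugt8a ratio in Prkci cKO was 0.0011 with a pseudocount of 1, 0.074 against Pkcz f/f controls and -0.035 to 0.076 with 1 library left out. Relative to mature markers in Prkci cKO, leaving out 1 library gave -0.075 to 0.0034 for Ugt8a and -0.066 to 0.0012 for Fa2h. With newly formed markers as the base, Prkci cKO gave -0.13 for Gal3st1, -0.13 for Cers2, -0.055 for Elovl1 and -0.20 for Elovl7, and Prkcz cKO gave -0.078 for Fa2h. Over all genes, the count past the threshold in Prkci cKO was 230, against 346 with array weights, 132 with Pkcz f/f controls and 95 to 211 with 1 library left out. In Prkcz cKO it was 93, against 30 without the trend, 59 with Pkcz f/f controls, 29 with 2 groups fitted alone and 13 to 77 with 1 library left out. Between the knockouts it was 43, against 112 with array weights and 10 to 152 with 1 library left out. Whether replicate numbers pair the libraries was not settled. Of 10 same-numbered pairs, 5 had a correlation of deviations over 0.1 (range -0.186 to 0.196), and 6 of 11 libraries correlated best with their own number. With the replicate block the members lower were 5 in Prkci cKO, 1 in Prkcz cKO and 0 between the knockouts, and the gene counts 263, 69 and 73. The estimated depth of Prkcz cKO replicate 3 was the lowest, and 3 libraries in that group limit what its tests can show.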
